A study of Gallus gallus with 6 samples.

Results

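RELN, CLU, EGFL7, PRMT5, KAT5, CWC25, ARMH3, TDRD5 and NOBOX are genes chosen for transcripts most abundant in the germinal disc region of the largest follicle of the hen. They are 9 of the 13009 genes measured, and 18 of the 38439 probe sets, a probe set being the group of short probes with which the Affymetrix chicken array reports 1 transcript. The genes were chosen by their expression values on these same arrays, which were higher in that tissue than in both other groups, so their height there is a description of the choice and supports nothing by itself. Every probe set that carries 1 of these gene symbols alone was kept, whichever way its values went. For ARMH3 the height in that tissue depended on the probe set.

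The study took tissue from ISA Brown laying hens aged 60 weeks, untreated and fed at will. The sample records give a light period of 14 h, and the methods a different one. The groups were the germinal disc region dissected from the F1 follicle, the largest before ovulation (F1 GDR), that of just ovulated oocytes (Ov GDR), and granulosa cells that surrounded the disc in F1 follicles (F1 GCs). Each group had 2 arrays, and each array carried the pooled tissue of 25 hens, so that the spread between arrays is one between pools and not between birds. According to the methods the F1 GDR kept some overlying granulosa cells that could not be removed, whereas the Ov GDR had none.

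The germinal disc is the small white spot on the yolk that holds the oocyte nucleus and most of the organelles of the egg. Around it, granulosa cells form a single layer that supplies the oocyte and makes progesterone before ovulation. Messenger RNAs stored in the disc serve the egg and the early embryo until the embryo's own genome is switched on, so genes that differ between the follicle and the ovulated egg are of interest for the last hours of maturation. The 9 genes fall into 4 kinds by what their proteins are known to do, namely secreted proteins (RELN, CLU, EGFL7), nuclear enzymes and a splicing factor (PRMT5, KAT5, CWC25), a protein of the Golgi apparatus (ARMH3) and germ line genes (TDRD5, NOBOX).

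The values are log2 expression, where a difference of 1 means a doubling. Background, taken on each array as the maximum over 23 controls whose sequences the hen does not have, lay between 2.76 and 3.27. Between 36.6% and 51.4% of the probe sets were above it, fewest on Ov GDR replicate 1. The difference between probes at the 3′ and the 5′ end of ACTB grows as RNA breaks down. It was also largest on Ov GDR replicate 1 (5.02), against 1.53 to 3.57 on the others, and smallest on Ov GDR replicate 2. The paper reports that ribosomal RNA of the germinal disc region seemed degraded from ovulation until laying, while messenger RNA was almost unaffected. The arrays of Ov GDR spread most, with an SD of the difference between replicates over all probe sets of 0.822, whereas F1 GDR had 0.432 and F1 GCs 0.296. The added hybridization controls averaged 9.74 to 9.95 on the Ov GDR arrays, 8.77 to 8.79 on the F1 GDR arrays and 7.90 to 8.33 on the F1 GCs arrays, so they moved with the groups. Haemoglobin transcripts were seen on 1 array, F1 GDR replicate 2, where HBA1 reached 5.76, while it was at background on the other 5. The part of RNA breakdown and of blood in the results below was not tested. In tissue pools, fewer cells of a type and less RNA per cell cannot be told apart.

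The labelled tissues were set beside their markers. Of 7 oocyte markers, DAZL, BTG4, MOS and ZP2 were high in both kinds of germinal disc region. They were called lower in F1 GCs relative to F1 GDR. GDF9 stayed near background, at 3.15 and 3.27 in Ov GDR, 2.92 and 2.89 in F1 GDR, and 2.82 and 2.81 in F1 GCs. It had no call between F1 GDR and F1 GCs. DDX4 and BMP15 were at background on every array. The paper detected both in the germinal disc region by real-time RT-PCR, so background here does not show that the transcripts were absent. The summed level of the oocyte markers was 9.41 to 10.03 in Ov GDR, 9.45 to 9.62 in F1 GDR and 5.38 to 5.93 in F1 GCs. The summed level of 10 granulosa markers was 11.97 to 12.19 in Ov GDR, 13.01 to 13.47 in F1 GDR and 14.34 to 14.38 in F1 GCs, with CYP11A1 and HSD3B1, enzymes of steroid synthesis, lowest in Ov GDR. FOXL2 and FST, also on that list, went the other way, with F1 GCs called below Ov GDR. The means of AMH (6.94 in Ov GDR and 5.49 in F1 GCs) and FSHR (7.84 and 7.47) were also lower in F1 GCs, without a call. FOXL2 had a mean of 11.86 in Ov GDR, so the summed granulosa level there was mostly that of FOXL2. In the oocyte and granulosa lists 0 genes were called higher in F1 GDR than in both other groups. The share over all genes was 0.215%, and 7 of the 9 genes were called so. Nothing is read from these counts. The summed levels of the other marker lists were 6.36 to 7.51 for theca and stroma, 6.50 to 7.74 for endothelium, 4.68 to 6.38 for red blood cells and 5.43 to 9.94 for leukocytes. The stroma gene COL1A2 also had its highest mean in F1 GDR (margin 0.81), without a call there against either other group. It was at background in Ov GDR and read 5.31 and 6.63 in F1 GDR and 5.26 and 5.07 in F1 GCs. For COL1A2, F1 GCs were called above Ov GDR, by 2.55 (limma, adjusted p = 0.0399). CLU had the same order of group means, with F1 GCs 1.44 above Ov GDR (limma, adjusted p = 0.0577). The part of stroma in the values of the 9 genes was not tested. The sum for theca and stroma was highest on F1 GDR replicate 2. The leukocyte sum followed CD74, which was high in F1 GDR and F1 GCs, while PTPRC and CD3E were at background throughout. Thus 4 of 10 granulosa markers were called higher in F1 GDR relative to Ov GDR (3.05% of all genes). Of 7 oocyte markers 4 were called higher in F1 GDR relative to F1 GCs (4.34% of all genes). The part of granulosa and oocyte transcripts in the differences of the 9 genes was not tested.

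Of the 9 genes, each taken by its brightest probe set, 8 had both F1 GDR arrays above all 4 other arrays, beside 8.03% of all genes. By limma with Benjamini-Hochberg adjustment 7 of 9 were called higher in F1 GDR relative to Ov GDR (3.05% of all genes), 8 of 9 higher than in F1 GCs (4.34%), and 7 of 9 higher than both (0.215%). These shares come from the contrasts that chose the genes, and nothing is read from them. The exceptions were ARMH3, whose brightest probe set met the level of Ov GDR, and EGFL7, which was not called against Ov GDR. All of these calls were lost when either F1 GDR array or either F1 GCs array was left out, and so were most calls over all genes. Without either Ov GDR array more genes were called higher than both, among the 9 and over all genes. These changes are thus not read as particular to the 9 genes. With any 1 array left out the peak margin, which is the mean of F1 GDR less the higher of the other group means, stayed at or above 0.70 for every gene but ARMH3.

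**Figure D1:**
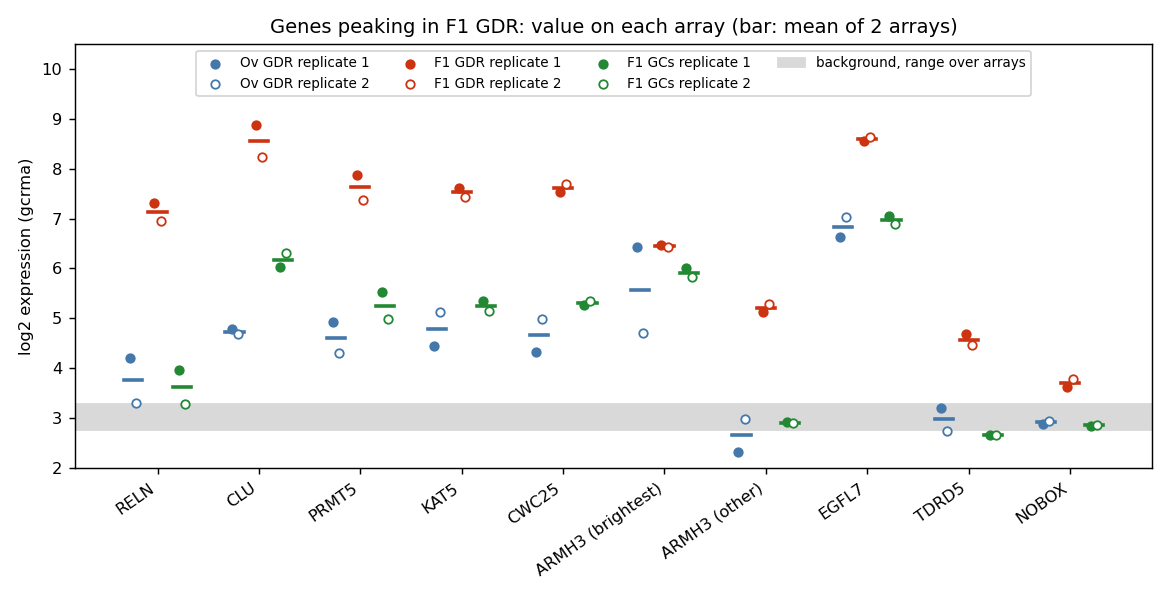
Log2 expression of the 9 genes on each of the 6 arrays, with filled points for replicate 1, open points for replicate 2, bars for the mean of the 2 arrays and a grey band for the range of background over the arrays. ARMH3 is drawn with 2 probe sets; on its brightest one Ov GDR replicate 1 is level with F1 GDR, whereas for the others the F1 GDR points lie above the rest.

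Among the secreted proteins, RELN and CLU had 2 of the largest margins of the 9 genes and EGFL7 a smaller one. RELN encodes reelin, a large glycoprotein that guides migrating neurons by binding the lipoprotein receptors VLDLR and LRP8. The brighter of its probe sets read 4.21 and 3.30 in Ov GDR, 7.31 and 6.95 in F1 GDR, and 3.96 and 3.28 in F1 GCs. Both F1 GDR arrays were thus high, while the other 4 lay between background and about 1 log2 unit above it, and the groups were separated by 2.74. The mean of F1 GDR exceeded that of Ov GDR by 3.38 (SE 0.44), a 10.4-fold difference, and that of F1 GCs by 3.51 (SE 0.44), an 11.4-fold difference. By peak margin RELN ranked 6 among all 38439 probe sets. It was 1 of 8 probe sets with a margin of at least 3 whose F1 GDR arrays lay above background and above all others. A second RELN probe set read between 2.53 and 3.43 on the 6 arrays, near background, and did not peak in F1 GDR (margin -0.19).

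CLU encodes clusterin, a secreted chaperone that binds lipids and misfolded proteins and is also taken up by lipoprotein receptors. It read 4.78 and 4.68 in Ov GDR, 8.87 and 8.24 in F1 GDR, and 6.03 and 6.32 in F1 GCs on its only probe set. The 3 groups did not overlap, with F1 GDR highest, F1 GCs between and Ov GDR lowest. The difference was 3.82 (SE 0.34) against Ov GDR, or 14.2-fold, the largest of the 9 genes, and 2.38 (SE 0.34) against F1 GCs, or 5.20-fold. CLU was also the gene whose 2 lower groups stood furthest apart.

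EGFL7 encodes a secreted protein best known from the endothelium of mammals, where it binds Notch receptors. Its brightest probe set read 6.62 and 7.03 in Ov GDR, 8.56 and 8.64 in F1 GDR, and 7.06 and 6.89 in F1 GCs. EGFL7 was well above background in every group, and the F1 GDR arrays lay 1.50 above the highest other array. It was 3.42-fold higher than in Ov GDR and 3.09-fold higher than in F1 GCs. A second probe set of the same transcript cluster read 6.08 and 5.97, 7.39 and 7.40, and 6.39 and 6.20 in the same order of groups and also separated F1 GDR from the rest, with a smaller margin (1.09, against 1.63). The other 3 of its 5 probe sets reached at most 3.87 on any array and overlapped between groups. Of 10 endothelial markers, CDH5 and VWF were at background on every array, and PECAM1, KDR, ERG and CLDN5 above it on every array. CLDN5 read 4.01 and 3.24 in Ov GDR, 5.50 and 5.78 in F1 GDR, and 6.93 and 7.00 in F1 GCs. In F1 GDR 0 of the 10 were called higher than in Ov GDR or in F1 GCs, beside 3.05% and 4.34% of all genes. The part of endothelium in the values of EGFL7 was not tested.

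The 3 nuclear genes differed between groups by similar amounts. PRMT5 encodes a methyltransferase that places symmetric dimethyl marks on arginines of histones and of the Sm proteins of the spliceosome. It read 4.92 and 4.30 in Ov GDR, 7.88 and 7.37 in F1 GDR, and 5.52 and 4.98 in F1 GCs on the brighter of its probe sets. The differences were 3.02 (SE 0.40), or 8.09-fold, against Ov GDR and 2.38 (SE 0.40), or 5.19-fold, against F1 GCs. The other one was at background in all groups, at 2.12 to 2.15, and carried no information on the difference.

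KAT5 encodes TIP60, an acetyltransferase of histones H2A and H4 with a part in DNA repair. It read 4.44 and 5.14 in Ov GDR, 7.62 and 7.43 in F1 GDR, and 5.34 and 5.15 in F1 GCs. F1 GDR was 6.68-fold higher than Ov GDR and 4.85-fold higher than F1 GCs, and the 2 lower groups all but met, at 5.14 and 5.15. CWC25 encodes a factor that joins the spliceosome for the first of the splicing reactions, known best from yeast. It read 4.33 and 4.98 in Ov GDR, 7.53 and 7.70 in F1 GDR, and 5.27 and 5.34 in F1 GCs. F1 GDR was 7.78-fold higher than Ov GDR and 4.96-fold higher than F1 GCs. By peak margin PRMT5, CWC25 and KAT5 ranked 26, 30 and 35 among all probe sets.

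ARMH3 encodes an armadillo-like protein that in human cells works with the lipid kinase PI4KB at the Golgi apparatus, and its 4 probe sets disagreed. The brightest read 6.43 and 4.71 in Ov GDR, 6.46 and 6.43 in F1 GDR, and 6.01 and 5.82 in F1 GCs. Here Ov GDR replicate 1 was level with the F1 GDR arrays while replicate 2 was low, and the margin was only 0.53, falling to 0.01 without Ov GDR replicate 2. By contrast the next brightest read 2.32 and 2.98 in Ov GDR, at background, 5.12 and 5.28 in F1 GDR, and 2.91 and 2.90 in F1 GCs. On this probe set F1 GDR was at least 4.17-fold higher than Ov GDR and 4.91-fold higher than F1 GCs. The remaining 2 probe sets lay between 2.68 and 3.26 and were highest in Ov GDR. Whether ARMH3 peaked in F1 GDR therefore depended on the probe set.

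TDRD5 and NOBOX, the germ line genes, lay closest to background. TDRD5 encodes a Tudor domain protein that in the mouse testis is needed to make piRNAs, the small RNAs that silence transposons. It read 3.21 and 2.74 in Ov GDR and 2.66 and 2.67 in F1 GCs, both at background, and 4.68 and 4.47 in F1 GDR. A level above background was thus seen in F1 GDR alone, at least 2.70-fold over Ov GDR and at least 3.49-fold over F1 GCs. NOBOX encodes a homeobox factor that oocytes of the mouse need to leave the resting pool. It read 2.89 and 2.93 in Ov GDR, at background, 3.61 and 3.78 in F1 GDR, and 2.83 and 2.87 in F1 GCs. With F1 GDR less than 1 log2 unit above background, NOBOX had the smallest margin among the 8 genes whose arrays did not overlap (0.79, rank 743), and a fold of at least 1.47 over Ov GDR and of 1.80 over F1 GCs.

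Over all 18 probe sets, 10 had both F1 GDR arrays above every other array, beside 4.65% of all probe sets. Of the 18, 8 were called above Ov GDR in F1 GDR (1.63% of all), 9 higher than in F1 GCs (2.1%) and 8 higher than in both (0.133%). The other 8 probe sets had margins from -0.43 to 0.53, and all but the brightest of ARMH3 stayed at low values. Just inside and just outside the line between separated and overlapping arrays stood NOBOX, whose lowest F1 GDR array was 0.68 above the highest other array, and the brightest probe set of ARMH3, at -0.002. The latter is smaller than the rounding of the F1 GDR replicate 2 values to 2 decimals, so whether it overlaps is not decided. The brighter probe set of PRMT5, that of TDRD5, the higher-margin one of ARMH3 and the second separated one of EGFL7 are of the kind whose probes also match other transcripts (the ending _s_at), so their signal may include those.

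**Figure D2:**
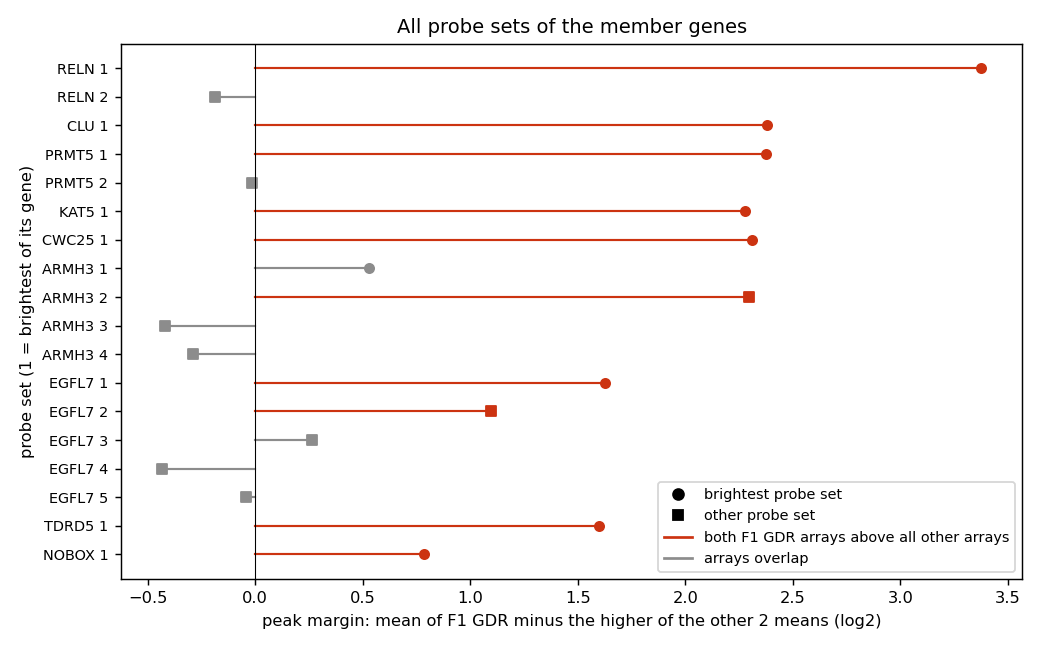
Peak margin (log2) of each of the 18 probe sets of the 9 genes, with circles for the brightest probe set of a gene and squares for the others, red where both F1 GDR arrays lie above all other arrays and grey where arrays overlap. RELN has the largest margin (3.38), and RELN, PRMT5, ARMH3 and EGFL7 each also have probe sets with a margin under 0.3.

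The difference of F1 GCs from Ov GDR shares its arrays with the contrasts that chose the genes and equals the difference between them, so it too is given as a description. By limma 0 of 9 genes were called, where 12.2% of all genes were higher and 10.1% lower in F1 GCs, and the count was also 0 without pooling of variances across probe sets. At an unadjusted p under 0.05 it was 1 of 9 (CLU), where 18.1% of all genes were higher and 23.4% lower. Nothing is read from these shares. CLU was 1.44 higher in F1 GCs (95% interval 0.55 to 2.34), with no overlap of the arrays. For PRMT5 (0.64, interval -0.41 to 1.69), CWC25 (0.65, interval -0.22 to 1.52) and KAT5 (0.46, interval -0.45 to 1.37) the mean of F1 GCs was higher, and the intervals include 0. ARMH3 (0.34, interval -1.28 to 1.97) was the least precise. RELN (-0.13, interval -1.29 to 1.02), EGFL7 (0.15, interval -0.57 to 0.87), TDRD5 (-0.31, interval -0.83 to 0.21) and NOBOX (-0.06, interval -0.33 to 0.21) had differences near 0. Equal levels were not shown, and for RELN, PRMT5, CWC25, KAT5 and ARMH3 the intervals reach beyond 1 log2 unit. The dimmest probe set of ARMH3, at background on every array but Ov GDR replicate 2, differed by -0.33. It was called lower in F1 GCs (limma, adjusted p = 0.0342), as 1 of the 18 probe sets, beside 6.51% of all probe sets. Arrays were also brought to equal hybridization controls, an alternative added after seeing the data. It moves the median of all probe sets by 1.73 in this comparison. All 9 genes were then called higher in F1 GCs, as were 10397 of all 13009 genes, so nothing is read from that count. For RELN, TDRD5 and NOBOX the difference changed sign.

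How far the genes stood above both other groups also depended on the scale. When ACTB, GAPDH and EEF1A1 were brought to the same mean on every array, the margins of RELN, EGFL7, TDRD5 and NOBOX were 2.92, 1.32, 1.14 and 0.33. With equal hybridization controls they were 2.84, 0.96, 1.24 and 0.18, and those of CLU, PRMT5, KAT5 and CWC25 lay between 1.61 and 1.71. Every gene but ARMH3 kept a margin above 0 under both, and the brightest probe set of ARMH3 turned to -0.13 under the latter.

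**Figure D3:**
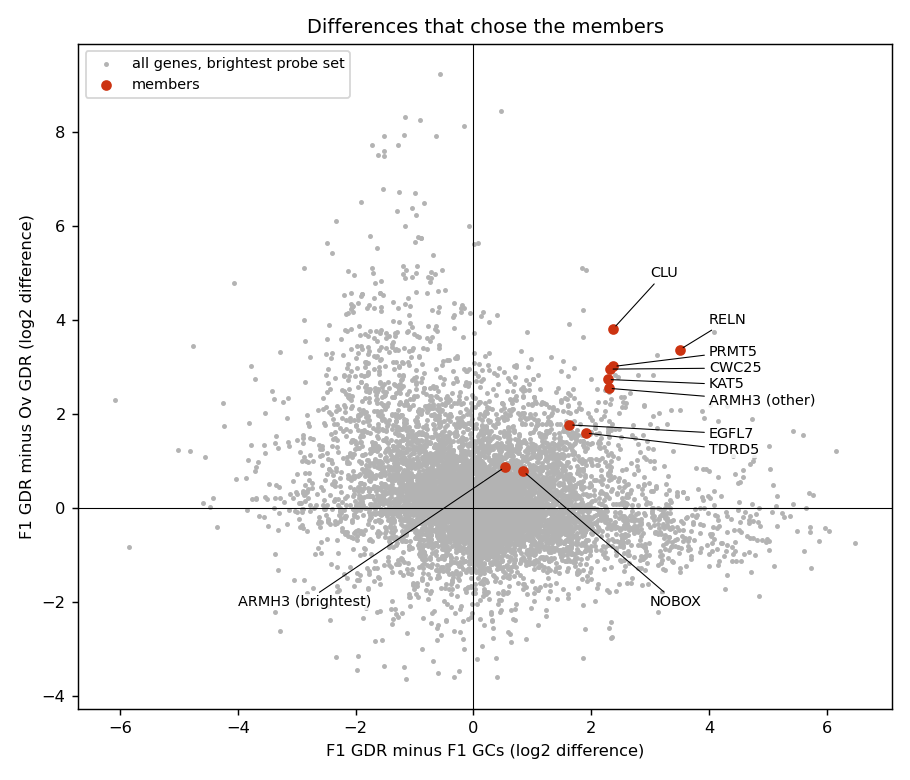
Log2 difference of F1 GDR from Ov GDR (vertical axis) against its difference from F1 GCs (horizontal axis) for all 13009 genes by brightest probe set (grey) and for the 9 genes (red, ARMH3 with 2 probe sets). Both axes were used to choose the genes; PRMT5, CWC25, KAT5 and the other ARMH3 probe set lie close together between 2.28 and 2.38 on the horizontal axis.

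The genes were also compared by the shape of their profile, as the Euclidean distance over the 6 arrays after the mean of each probe set had been subtracted, a description in which the points share arrays. Among all named genes the nearest to KAT5 were ARMH3 by its second brightest probe set (distance 0.361 log2 units) and CWC25 (0.398), and the nearest to CWC25 were KAT5 and the same ARMH3 probe set (0.467). In all 3, Ov GDR replicate 2 was above replicate 1 by 0.65 to 0.70, and the F1 GCs arrays differed by at most 0.19. On this ARMH3 probe set both Ov GDR arrays were at background, so nothing is read from their difference. RELN was nearest to CLDN11, a tight junction protein (0.788), which read 3.59 and 3.28 in Ov GDR, 7.32 and 7.05 in F1 GDR, and 3.22 and 2.97 in F1 GCs. PRMT5 was nearest to ID4, an inhibitor of helix-loop-helix factors (0.699), and RBM7, and CLU to NID1, which encodes the basement membrane protein nidogen (1.07). The profile of NID1 had the same order as CLU, at 3.96 and 4.05, 8.21 and 8.25, and 6.40 and 6.33. EGFL7 was nearest to ADSL, a purine synthesis enzyme (0.231), and POLR2I, TDRD5 to PHKG1 (0.248) and KAT14, and NOBOX to RNF14 (0.114) and RBM12B.

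Of the other genes with separated F1 GDR arrays, the 10 with the largest margins were CLDN11 (3.75), the heat shock protein gene HSPA2 (3.11), SPECC1 (2.87), DFNA5 (2.83), GNB1L (2.79), CSNK1G1 (2.48), RBM7 (2.45), KANSL2 (2.44), FTSJ1 (2.41) and IGHMBP2 (2.37). RELN lay between CLDN11 and HSPA2 in this order, and CLU and PRMT5 next to FTSJ1 and IGHMBP2. Only CLDN11 of these 10 was called higher than both other groups. HSPA2 read 10.36 and 8.03 in F1 GDR, a wider gap between replicates than the 0.015 to 0.63 of the 10 separated probe sets of the 9 genes. The gap was also wider for KANSL2 (5.87 and 5.00) and FTSJ1 (5.64 and 6.38). It was not wider for SPECC1, DFNA5, GNB1L, CSNK1G1 and RBM7, whose Ov GDR arrays lay further apart than their F1 GDR arrays. The 9 genes were chosen on these same arrays, so nothing is read from their narrower gaps. SPECC1 read 7.26 and 7.29 in F1 GDR, but 3.54 and 5.17 in Ov GDR and 4.90 and 3.92 in F1 GCs.

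Partners of the 9 genes in known pathways and complexes were taken from 8 lists, of which 103 genes were measured. Of these, 4 were called with F1 GDR above Ov GDR and 9 with F1 GDR above F1 GCs, and 0 were higher than both by limma. The shares over all genes were 3.05%, 4.34% and 0.215%. At an unadjusted p under 0.05 the counts were 13, 28 and 5 of 103, the last all in the spliceosome list, where 13.3%, 14.9% and 2.65% of all genes passed. With a separate variance for every probe set 0 were called higher than both, beside 0 of all 13009 genes, so nothing is read from it. The calls of these lists in F1 GDR were lost when either F1 GDR or either F1 GCs array was left out. Most calls over all genes were lost there too. For reelin and clusterin, the median peak margin of 12 receptors and signalling genes was -0.15, beside -0.18 over all genes. VLDLR, in the hen the receptor through which the oocyte takes up yolk precursors, read 8.25 and 8.12 in Ov GDR, 10.95 and 10.77 in F1 GDR, and 11.21 and 11.21 in F1 GCs. It was thus high in both samples of the follicle and 2.67 lower in Ov GDR relative to F1 GDR (adjusted p = 0.00723), with no call between F1 GDR and F1 GCs. LRPAP1, the chaperone of such receptors, was 4.99 higher in F1 GDR relative to Ov GDR (adjusted p = 0.0115). FYN, a kinase that acts on the reelin adaptor DAB1, was at background in Ov GDR and read 5.96 and 6.23 in F1 GDR (adjusted p = 0.0190), and both genes had still higher means in F1 GCs. The receptors LRP8 and LRP1 and the adaptor DAB1 stayed between 2.31 and 3.12, at or near background.

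Among 12 arginine methyltransferases and methylosome genes 0 were called higher in F1 GDR against either other group by limma, with unadjusted counts of 0 above Ov GDR and 5 above F1 GCs. WDR77, the partner with which PRMT5 is active, read 6.39 and 6.39 in Ov GDR, 6.96 and 7.53 in F1 GDR, and 7.47 and 7.10 in F1 GCs, so that F1 GDR and F1 GCs overlapped. The median margin of this list was -0.13. Of 16 genes of the TIP60 complex and related acetyltransferases, MRGBP, a subunit of the complex, exceeded its level in F1 GCs by 1.50 in F1 GDR (adjusted p = 0.0315) and KAT7, a sister enzyme of KAT5, did so by 1.64 (adjusted p = 0.0483). Both were about as high in Ov GDR, where MRGBP read 9.57 and 9.31 against 9.67 and 9.75 in F1 GDR. The median margin was -0.17.

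The catalytic spliceosome list of CWC25 held the most genes with separated F1 GDR arrays, 8 of 17, beside 8.03% of all genes, and its median margin was -0.05. CWC15, a subunit of the complex around CDC5L, read 7.80 and 7.71 in Ov GDR, 8.92 and 8.78 in F1 GDR, and 7.54 and 7.19 in F1 GCs, and was called against F1 GCs (1.48, adjusted p = 0.0478). DHX38, the helicase that remodels the spliceosome after the first reaction, was called against Ov GDR (2.38, adjusted p = 0.0299), and EFTUD2, a core GTPase, had the largest margin of the list (1.70) without a call. With CWC15, ISY1 and PRPF8 they were the 5 genes with an unadjusted p under 0.05 against both groups. CDC5L was highest in Ov GDR, at 10.37 and 10.20, with 9.12 and 9.02 in F1 GDR and 8.06 and 7.78 in F1 GCs, and was called between F1 GDR and F1 GCs (1.15, adjusted p = 0.0472).

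The Golgi list of ARMH3 had the lowest median margin (-0.51), and in F1 GDR 0 of its 13 genes were called higher than either other group by limma or separated (3 above Ov GDR and 1 above F1 GCs at an unadjusted p under 0.05). PI4KB itself was at background in all groups. Of 9 Notch pathway genes, NOTCH2 in F1 GDR was 3.84 above F1 GCs (adjusted p = 0.0381) and HEY1, a transcriptional target of Notch, 2.53 higher (adjusted p = 0.0479). Their means differed little between the germinal disc regions, by 0.01 (SE 0.56) for NOTCH2 and 0.13 (SE 0.42) for HEY1. NOTCH2 read 9.74 and 11.19 in Ov GDR, and equal levels were not shown. Among 16 piRNA genes 0 were called higher in F1 GDR by limma (0 above Ov GDR and 2 above F1 GCs unadjusted). At background in all groups were 9, among them DDX4, which the paper detected in the germinal disc region by real-time RT-PCR. PIWIL1, a piRNA-binding protein, read 5.79 and 4.59 in Ov GDR, 3.91 and 4.27 in F1 GDR, and 2.95 and 2.64 in F1 GCs, and so was not highest where TDRD5 was. Of 8 genes measured with NOBOX, the oocyte factor LHX8 in F1 GDR was 2.28 above F1 GCs (adjusted p = 0.0315), with values of 4.42 and 4.93 in Ov GDR and 5.18 and 5.67 in F1 GDR. The germ cell gene DAZL, whose protein binds messenger RNA, was 5.08 above F1 GCs (adjusted p = 0.0307), and ZAR1L, a zygote arrest protein of the oocyte, read 5.30 and 6.07 in F1 GDR and was at background in F1 GCs (adjusted p = 0.0450). Both overlapped between the germinal disc regions, whereas NOBOX was at background in Ov GDR.

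**Figure D4:**
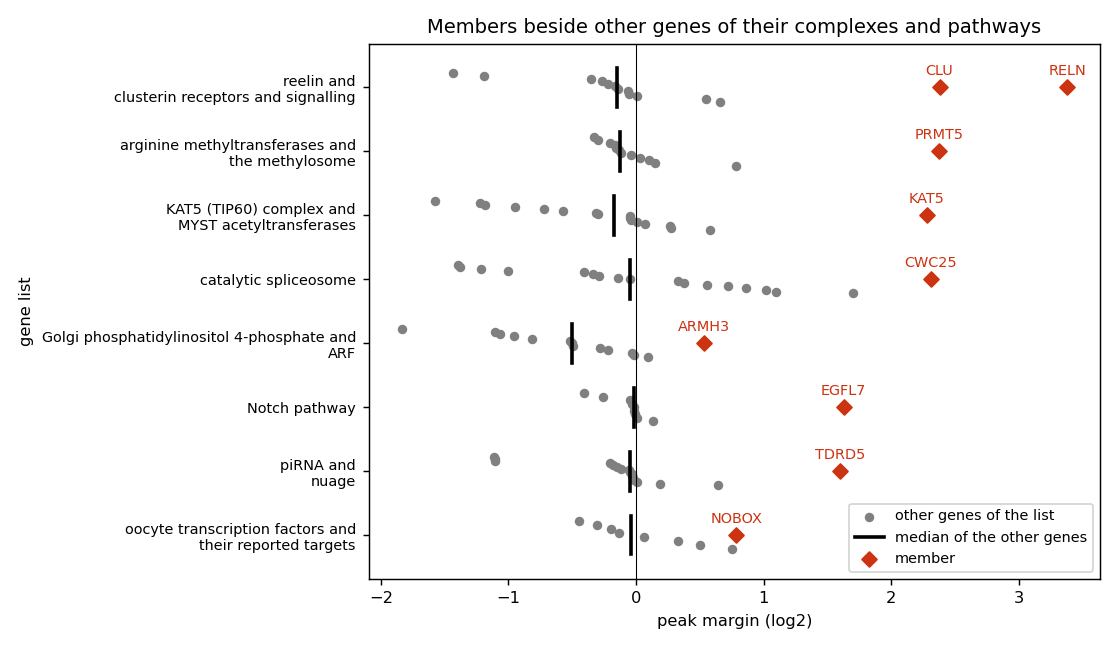
Peak margin (log2) of the other measured genes of 8 pathway and complex lists (grey points, black bar at their median) beside the 9 genes by their brightest probe set (red diamonds). The medians lie between -0.51 and -0.02, and the spliceosome list reaches 1.70 with EFTUD2.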

How the data were processed

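Messenger RNA was measured on 6 Affymetrix chicken arrays. The authors normalized the arrays with gcrma and deposited log2 values per probe set, which were used as given. For the gcrma version, the sources used here give none. The column of F1 GDR replicate 2 is rounded to 2 decimals. The tests omitted 96 Affymetrix controls among the 38535 probe sets. Symbols came from the platform annotation, in which 27168 probe sets carry 1 symbol, 177 several and 11094 none.

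The contrasts were fitted in R 4.3.3 by limma 3.58.1 (3 groups, 6 arrays, 3 residual and 1.66 prior degrees of freedom, mean-variance trend, two-sided), with Benjamini-Hochberg adjusted p-values under 0.05 over all probe sets as calls. This replaces the mixture of variances of the methods, whose Bonferroni threshold was an alternative. A group is at background where both arrays are at or under it, and a fold is then computed over the higher of background and signal. With 2 arrays a group, the smallest exact permutation p is 0.333. The number of arrays limits the precision, and p-values measure the spread between pools. For each probe set the 3 groups share a single estimate of that spread, although the Ov GDR arrays spread most. The calls against Ov GDR thus rest partly on the quieter F1 GCs arrays. With only the 4 arrays compared, 0 of all genes were called higher in F1 GDR relative to Ov GDR. The suffix A was taken as replicate 2, and the correlations of the suffix differences between groups were -0.153, 0.168 and -0.145. No pairing was seen in them, but they cannot exclude it. The labels do not tell whether pools of different groups shared hens. The fit was tested on simulated data.

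The 9 genes, lists and tests were chosen with earlier results of these data known. Named besides them were the 10 genes with the largest peak margin, the 2 nearest in profile and, per list, up to 4 genes called against F1 GCs. VLDLR, LRPAP1, FYN, DHX38, EFTUD2, ISY1, PRPF8, WDR77, PIWIL1, PI4KB, LRP8, LRP1, DAB1 and the markers were named after their values were seen.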

Additional observations from a re-analysis of the deposited data

How the results depend on the processing

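Counts are given for the calls in the order F1 GDR above Ov GDR, above F1 GCs, above both, and F1 GCs against Ov GDR either way. For the 9 genes they were 7, 8, 7 and 0, and for all 13009 genes 397, 565, 28 and 2894. The fourth count for the 9 genes rose to 1 without the mean-variance trend and with only probe sets whose mean log2 reached 4 in a group, and to 9 with equal hybridization controls. Their first 3 counts were 5, 6 and 5 with equal reporter genes, and 9, 6 and 6 with equal hybridization controls. The first and the third fell to 0 with only the 4 arrays compared, and the first 3 all fell to 0 with the suffix as a replicate block, with a separate variance per probe set and with Bonferroni adjustment. With an array left out the counts for the 9 genes ran from 0 to 9, 0 to 8, 0 to 8 and 0 to 1.

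For all genes the third count was 65 without the trend. The 4 counts were 0, 1035, 0 and 1722 with only the 4 arrays compared, and 17, 0, 0 and 1776 with the replicate block. The suffix is only a label, so the loss under the block is not read as a weaker effect. The first 3 were 804, 1249 and 91 with the filter on mean log2, where NOBOX was not tested. With equal reporter genes the first 3 were 480, 940 and 26. With equal hybridization controls the 4 counts were 9246, 717, 260 and 10814. They were 0, 2, 0 and 196 with a separate variance and 6, 0, 0 and 9 with Bonferroni. Leaving out an array gave 0 to 1267, 0 to 1026, 0 to 161 and 613 to 5005.

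Of the calls in F1 GDR against Ov GDR 93.9% were higher, 56.5% with equal reporter genes and 99.3% with equal hybridization controls. Of those between F1 GDR and F1 GCs 56.6% were higher, and 10.3% with equal hybridization controls. Of those between F1 GCs and Ov GDR 54.8% were higher, and 39.0% and 96.1% under the same settings. The hybridization controls move the medians of these comparisons by 1.06, -0.67 and 1.73, at background too, and the reporter genes by -0.46, -0.03 and -0.43. With equal hybridization controls the differences of F1 GCs from Ov GDR in RELN (1.60), TDRD5 (1.42) and NOBOX (1.67) and the margin of ARMH3 (-0.13) changed sign. Among the uncalled differences of F1 GCs from Ov GDR, RELN also did without Ov GDR replicate 1 (0.32) or F1 GCs replicate 2 (0.21), ARMH3 without Ov GDR replicate 2 (-0.52) and with equal reporter genes (-0.09), and EGFL7 without Ov GDR replicate 1 (-0.05) and with equal reporter genes (-0.28). The cause of these changes was not tested. The search for promoter motifs was not run, since promoter sequences were not used here. Signal over background limits NOBOX and TDRD5, whose lower groups are at or near background.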
